A study of Mus musculus with 8 samples.

Results

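The 38 genes described here are imprinted genes, a set listed by name and found by symbol in the count tables of 8 mouse hearts. All 38 were listed, out of 24411 gene symbols in all, and they belong to 17 imprinted clusters or single loci. The allele known from the literature as the main source of transcript, in some tissue or stage and not always in heart, was used to group them. By it, 22 are paternally expressed, 15 maternally expressed and 1, Gnas, gives products of either allele. The 4 YY1 KO hearts came from C57BL/6 mice with a cardiac-specific knockout of Yy1, the gene of the DNA-binding protein YY1 (Yin-Yang 1). The 4 MerCreMer control hearts came from C57BL/6 mice that carried MerCreMer, a Cre recombinase made dependent on a ligand by mutated oestrogen receptor domains. All mice had undergone transverse aortic constriction, which narrows the aorta and loads the left ventricle with pressure, 1 week earlier. The labels give neither age, nor the promoter that drives MerCreMer, nor the ligand, nor which Yy1 alleles the controls carried.

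An imprinted gene is transcribed mainly or only from the copy inherited from 1 parent. The parental copies are told apart by DNA methylation laid down in the germ line at control regions, and factors such as ZFP57 and its partner TRIM28 keep that methylation through early development. Imprinted genes lie in clusters, often with a noncoding RNA on the opposite strand of a protein-coding neighbour, and many act on fetal growth. YY1 binds clustered sites in the control regions of Peg3 and Gnas in the mouse. The counts used here sum both alleles, so they show how much transcript was present and not from which parent.

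Libraries of polyadenylated RNA held 14582605 to 16000455 reads assigned to genes. Levels are given in CPM, read counts scaled to library depth and TMM factors, and a gene was called when its adjusted p in edgeR's quasi-likelihood test lay under 0.05. Yy1 itself was at 18.04, 22.3, 19.9 and 23.8 CPM in the YY1 KO hearts, against 33.8, 37.2, 36.3 and 37.1 CPM in the controls. The groups did not overlap (log2 fold change −0.78 ± 0.10 (SE), edgeR adjusted p = 0.000769). The study's text gives all mice as male, but YY1 KO 1 and 4 and controls 1 and 4 held 2156 to 3512 reads of Xist, the RNA of the inactive X chromosome, and at most 2 reads of 4 Y-linked genes. The reverse held in the other 4 hearts, so each group had 2 hearts of either kind. Values within each kind are given below for the called imprinted genes.

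Of the 38 imprinted genes, 30 passed the filter on low counts, 3 were higher in YY1 KO hearts, 4 were lower and 23 were not called. The higher genes were Kcnq1ot1, Copg2 and Zrsr1, and the lower ones Ddc, Mest, Nnat and Commd1. The counts listed for Nnat were nearly all from the strand of its host gene Blcap, so its call is not one of the Nnat transcript. Among all 13506 genes tested, 21.6% were called higher and 17.3% lower, 38.9% in either direction. Of the imprinted genes tested, 10% were higher and 13.3% lower, so a smaller share of these 30 was called than of all genes. With library size in place of TMM scaling, 6 were higher and 4 lower, but the share of all genes called with that scaling was not counted. The groups did not overlap for 7 of the 30 (23.3%), against 38.3% of all genes tested. The median log2 fold change was 0.08 for the 30 imprinted genes and 0.01 for all genes, and the median absolute change 0.33 and 0.35. A comparison list of other imprinted genes, given below, went the other way, with 44.1% of 34 tested genes called.

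By parental allele, 2 of 16 paternally expressed genes tested were higher (Kcnq1ot1 and Zrsr1) and 3 lower (Ddc, Mest and the counts listed for Nnat), with a median log2 fold change of 0.12. Of 13 maternally expressed genes tested, 1 was higher (Copg2) and 1 lower (Commd1), with a median of −0.07. For comparison, 21.6% of all genes tested were called higher and 17.3% lower. The grouping follows the literature, for some genes such as Ube3a from tissues other than heart, and allele use in these hearts was not measured. The called genes lay in 5 of the 16 clusters with a tested gene. The 5 include the Nnat cluster, whose only call rests mostly on reads from the strand of Blcap. In 2 of these clusters, those of Zrsr1 and Mest, both genes of an overlapping pair on opposite strands were called, in opposite directions.

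**Figure D1:**
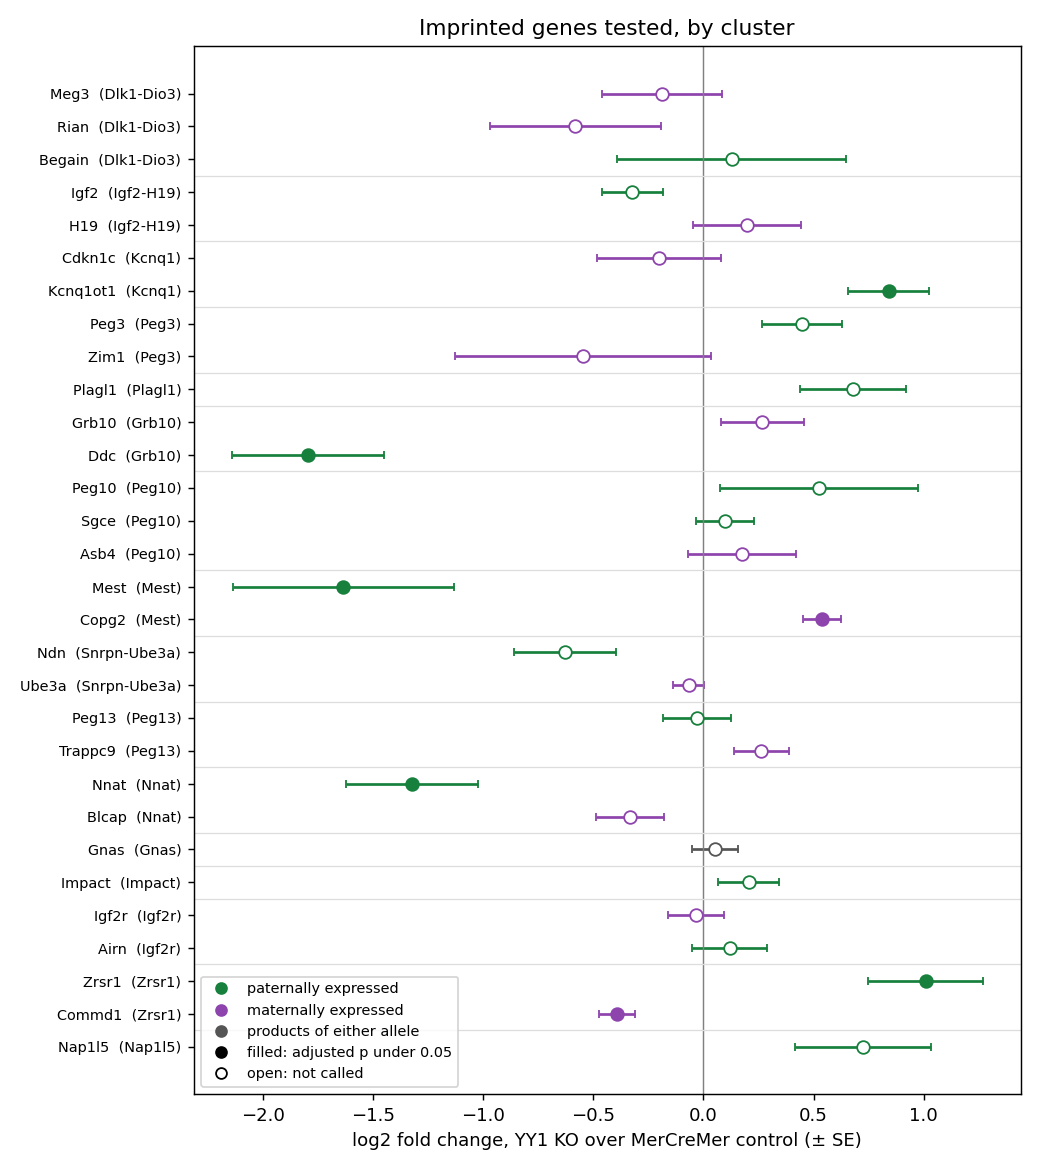
Log2 fold change (YY1 KO over MerCreMer control, ± SE) of the 30 imprinted genes tested, ordered by cluster and coloured by expressed allele, with filled points for an edgeR adjusted p under 0.05. The 7 called genes run from Ddc at −1.80 to Zrsr1 at 1.01, and most other points lie within 1 unit of 0.

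Zrsr1, a relative of the small subunit of the splicing factor U2AF, lies within Commd1 on the opposite strand (mm10 chromosome 11, 22972005 to 22976496). It is paternally expressed. Zrsr1 was at 51.8, 77.0, 64.4 and 47.3 CPM in YY1 KO hearts, against 43.6, 34.3, 20.3 and 21.4 CPM in controls. All YY1 KO hearts lay above all controls, with a narrow gap between YY1 KO 4 and control 1 (log2 fold change 1.01 ± 0.26, edgeR adjusted p = 0.0145). Commd1, whose protein takes part in copper export and endosomal sorting, was at 36.6, 33.8, 35.3 and 36.0 CPM in YY1 KO hearts, against 51.5, 47.1, 44.1 and 43.3 CPM in controls. All YY1 KO hearts lay below all controls (−0.39 ± 0.08, edgeR adjusted p = 0.00543). The ratio of Zrsr1 to Commd1 CPM was 1.31 to 2.28 in YY1 KO hearts and 0.460 to 0.847 in controls, so Zrsr1 held more reads than its host in every YY1 KO heart and fewer in every control. The genes share 412 annotated exon bases, and reads there cannot be assigned without strand. With strand-resolved counts both calls were kept (Zrsr1 1.01, edgeR adjusted p = 0.0151, and Commd1 −0.37, edgeR adjusted p = 0.00664).

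Mest, a hydrolase-fold protein of fetal and adipose tissue, is paternally expressed (chromosome 6, 30723547 to 30748465). It was at 7.30, 4.28, 6.89 and 11.5 CPM in YY1 KO hearts, against 7.04, 15.2, 39.5 and 31.4 CPM in controls. Control 1 lay among the YY1 KO hearts and controls 3 and 4 far above them, so the groups overlapped (log2 fold change −1.64 ± 0.50, edgeR adjusted p = 0.0292). The call was lost without YY1 KO 1, 2 or 3 or control 3 or 4 (edgeR adjusted p 0.0649 to 0.0784), with log2 fold changes of −1.26 to −1.95 when any 1 heart was left out. It was also lost on all 8 hearts with no filter on low counts (edgeR adjusted p = 0.0515).

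Copg2 encodes a subunit of the COPI vesicle coat and ends on the opposite strand within Mest (chromosome 6, 30747554 to 30896794). A maternal bias of Copg2 is known mainly from mouse brain. Copg2 was at 69.3, 72.5, 76.9 and 66.7 CPM in YY1 KO hearts, against 49.9, 51.5, 52.1 and 43.0 CPM in controls. The groups did not overlap (0.54 ± 0.09, edgeR adjusted p = 0.00179), and the log2 fold change was 0.47 to 0.57 with any 1 heart left out. The genes share 912 exon bases. On its own strand Mest had 158, 64, 126 and 238 reads in YY1 KO hearts, against 119, 287, 881 and 694 in controls. Reads on the Mest strand counted at Copg2 numbered 76, 40, 94 and 156 in YY1 KO hearts, against 57, 117, 342 and 253 in controls. With strand-resolved counts both calls were kept (Mest −1.80, edgeR adjusted p = 0.0315, and Copg2 0.54, edgeR adjusted p = 0.00217).

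Kcnq1ot1 is a long, largely unspliced RNA made from the paternal allele (chromosome 7, 143203458 to 143296549) that silences genes of its cluster on the same chromosome. It runs against Kcnq1, the gene of a cardiac potassium channel, which in mouse is maternally expressed early and known to become biallelic in heart. Kcnq1ot1 was at 5.88, 5.09, 4.42 and 6.05 CPM in YY1 KO hearts, against 3.45, 3.35, 2.65 and 2.53 CPM in controls. All YY1 KO hearts lay above all controls (log2 fold change 0.84 ± 0.19, edgeR adjusted p = 0.00708). On its own strand it had 88, 72, 56 and 93 reads in YY1 KO hearts, against 40, 27, 38 and 31 in controls (strand-resolved log2 fold change 1.11, edgeR adjusted p = 0.00414). Reads on the Kcnq1 strand within it went the other way, with 117, 79, 79 and 112 in YY1 KO hearts, against 214, 202, 201 and 255 in controls. They made up 55.6% of strand-resolved reads at Kcnq1ot1 in YY1 KO hearts and 86.5% in controls. The count irrespective of strand was 68 to 99 reads in YY1 KO hearts and 40 to 49 in controls, below the sum of both strands.

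Kcnq1 itself was at 22.6, 23.2, 24.0 and 32.5 CPM in YY1 KO hearts, against 71.8, 63.3, 53.8 and 66.0 CPM in controls. The groups were far apart (−1.32 ± 0.14, edgeR adjusted p = 0.000342). The ratio of Kcnq1ot1 to Kcnq1 CPM was 0.184 to 0.261 in YY1 KO hearts and 0.0384 to 0.0529 in controls. Among other genes of the domain, Cd81, Slc22a18, Nap1l4, Osbpl5, Dhcr7 and Tnfrsf23, imprinted genes listed for comparison, were not called. Their log2 fold changes were 0.08 to 0.54 (edgeR adjusted p 0.0647 to 0.557). Tssc4, a maternally expressed gene named after its values were seen, was at 27.7 ± 1.99 CPM in YY1 KO hearts and 19.1 ± 2.99 CPM in controls (SD, n = 4 each) and was called higher (0.54 ± 0.12, edgeR adjusted p = 0.00830). Cdkn1c, the maternally expressed inhibitor of cyclin-dependent kinases p57, was at 6.83 to 16.2 CPM in YY1 KO hearts and 11.4 to 21.2 CPM in controls (−0.20 ± 0.28, edgeR adjusted p = 0.598). Phlda2, a maternally expressed growth restrictor best known from placenta, had 0 reads in all 8 hearts. An expected count of up to about 3 reads, or 0.206 CPM in the smallest library before TMM scaling, can leave a count of 0.

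**Figure D2:**
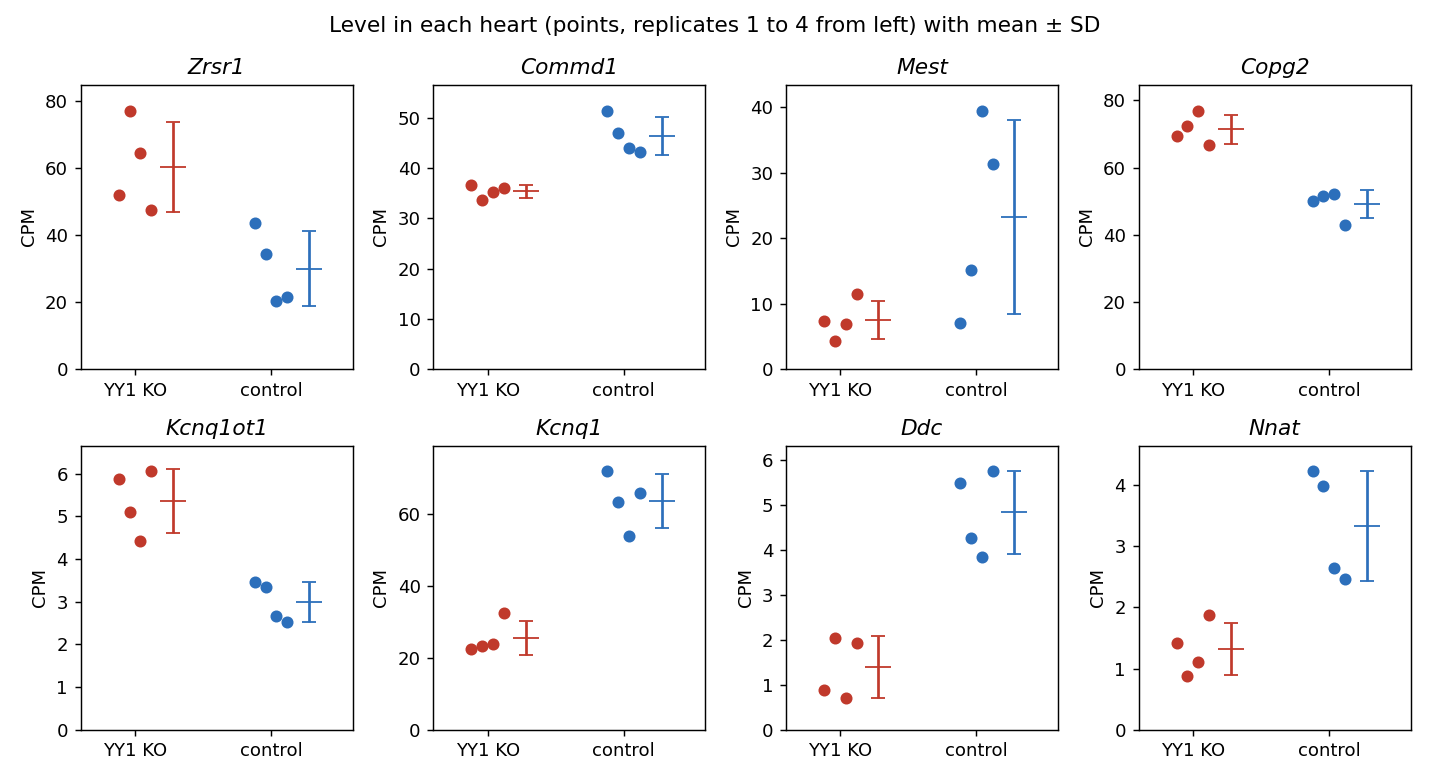
CPM in each heart (points; YY1 KO left, MerCreMer control right) with mean ± SD for the 7 called imprinted genes and Kcnq1. Points of the groups are separate in each panel except that of Mest, where control 1 at 7.04 CPM lies among the YY1 KO hearts.

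Ddc encodes the decarboxylase that makes dopamine and serotonin, and in mouse an isoform is known to be paternally expressed in fetal heart (chromosome 11, 11814101 to 11898144). It was at 0.890, 2.04, 0.715 and 1.93 CPM in YY1 KO hearts, against 5.49, 4.27, 3.85 and 5.75 CPM in controls. All YY1 KO hearts lay below all controls (log2 fold change −1.80 ± 0.35, edgeR adjusted p = 0.00391). Dbh, which makes noradrenaline from dopamine and marks sympathetic nerves, was at 0.567 ± 0.419 CPM in YY1 KO hearts and 3.89 ± 1.22 CPM in controls (SD, n = 4 each), and was also called lower (−2.75 ± 0.45, edgeR adjusted p = 0.00185). The part of nerve content in the value of Ddc was not tested. The neighbour of Ddc, Grb10, an adaptor that dampens insulin and IGF receptor signals and is maternally expressed outside the brain, was at 154, 124, 154 and 198 CPM in YY1 KO hearts, against 96.0, 118, 162 and 148 CPM in controls. These groups overlapped (0.27 ± 0.19, edgeR adjusted p = 0.282).

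Nnat, a small membrane protein gene inside an intron of Blcap, was at 1.42, 0.883, 1.104 and 1.87 CPM in YY1 KO hearts, against 4.23, 3.99, 2.65 and 2.47 CPM in controls (−1.32 ± 0.30, edgeR adjusted p = 0.00798). The groups did not overlap, but few of these reads came from the strand of Nnat. On that strand there were 0 to 4 reads in YY1 KO hearts and 0 to 2 in controls, whereas 13 to 26 reads in YY1 KO hearts and 39 to 58 in controls lay on the strand of Blcap. The difference therefore cannot be assigned to the Nnat transcript, and with strand-resolved counts Nnat had too few reads for the test. Blcap was at 45.1 to 56.3 CPM in YY1 KO hearts and 49.3 to 80.3 CPM in controls (−0.33 ± 0.15, edgeR adjusted p = 0.115), and was called only when control 3 was left out (−0.44, edgeR adjusted p = 0.0407).

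**Figure D3:**
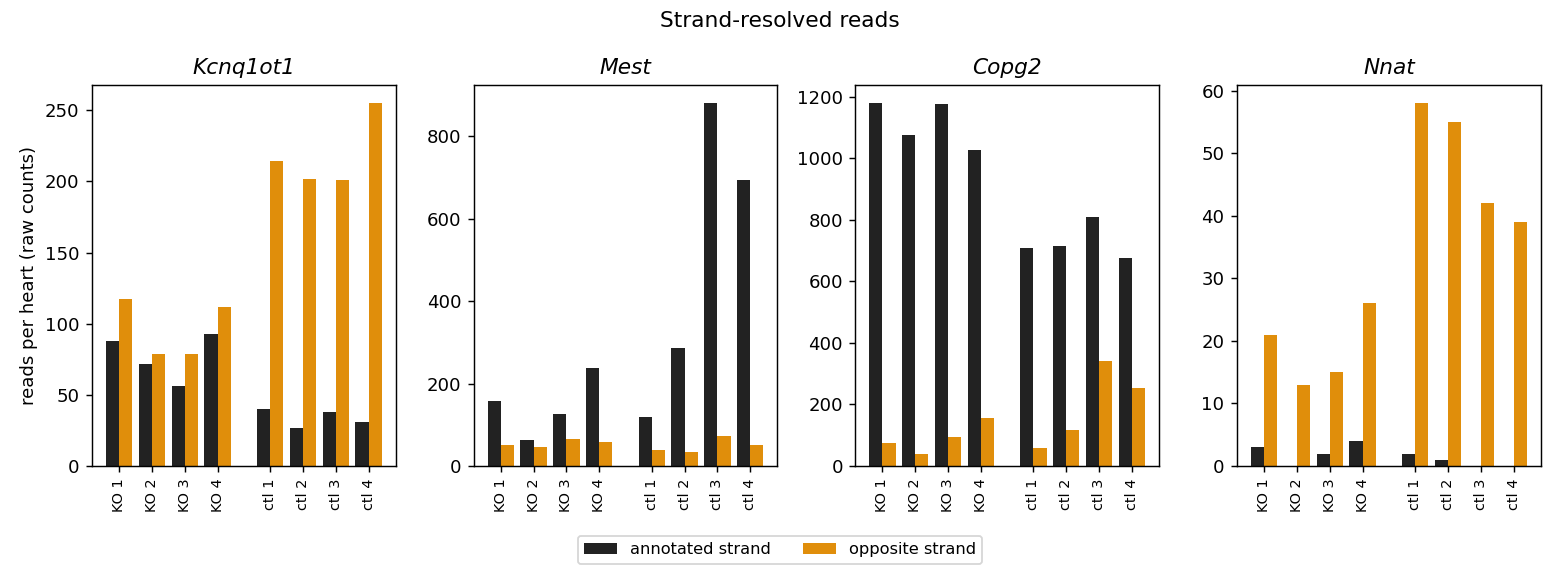
Raw reads per heart on the annotated strand (black) and on the opposite strand (orange) at Kcnq1ot1, Mest, Copg2 and Nnat, YY1 KO hearts left of controls. At Nnat almost all reads lie on the opposite strand, and at Kcnq1ot1 the annotated strand is higher in YY1 KO hearts (56 to 93 against 27 to 40 reads) while the opposite strand is lower.

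Between hearts of either kind of sex-linked RNA, the called genes kept their direction. In the Y-positive hearts (2 against 2) the log2 fold change was 1.36 for Zrsr1, −0.42 for Commd1, −2.31 for Mest, 0.51 for Copg2, 0.65 for Kcnq1ot1, −1.58 for Ddc and −1.75 for Nnat. In the Xist-positive hearts it was 0.61, −0.38, −1.04, 0.55, 0.99, −1.99 and −1.02 in the same order of genes. The calls of Commd1, Kcnq1ot1 and Ddc were lost in the Y-positive hearts (edgeR adjusted p 0.0587 to 0.163) and those of all 7 genes in the Xist-positive hearts (0.110 to 0.419). With a term for sex over all 8 hearts, the 7 calls were kept. An interaction of genotype with sex, tested in edgeR over 13506 genes, was called for 0 genes (702 at an unadjusted p under 0.05), and its lowest adjusted p among the imprinted genes was 0.812. For 20 other called genes, Yy1, Kcnq1, Snhg14, Tssc4, 2 nerve markers and 14 from the lists, the direction was the same within either kind. In the Y-positive hearts 13 of them were called, the exceptions being Grb14, Htr2a, Igfbp6, Insr, Tssc4, Tubb3 and Zfp445 (edgeR adjusted p 0.0551 to 0.213). In the Xist-positive hearts edgeR called 0 of them (edgeR adjusted p 0.100 to 0.503).

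The cluster on chromosome 12 is the one nearest to the deleted gene. The starts of Begain, Dlk1, Meg3, Rian and Mirg lie 0.239, 0.660, 0.748, 0.811 and 0.937 Mb from the start of Yy1, and that of Dio3 1.49 Mb away. Its maternally expressed noncoding RNAs varied widely within each group. Meg3, a long noncoding RNA, was at 22.1, 12.2, 17.5 and 23.4 CPM in YY1 KO hearts, against 12.96, 18.2, 25.3 and 29.2 CPM in controls (−0.19 ± 0.27, edgeR adjusted p = 0.611). Rian, the host of small nucleolar RNAs, was at 8.61, 2.92, 5.46 and 10.4 CPM in YY1 KO hearts, against 5.99, 8.90, 11.7 and 14.5 CPM in controls (−0.58 ± 0.39, edgeR adjusted p = 0.260). For both genes YY1 KO 2 was the lowest heart and control 4 the highest. Rian was called lower in the Y-positive hearts alone (−1.31, edgeR adjusted p = 0.0392).

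Mirg, which hosts a miRNA cluster, had 3 to 11 reads in YY1 KO hearts and 5 to 14 in controls, too few for the test. Of the paternally expressed genes, Begain, a postsynaptic protein gene, was at 0.407 to 1.31 CPM in YY1 KO hearts and 0.352 to 1.52 CPM in controls (0.13 ± 0.52, edgeR adjusted p = 0.860). Dlk1, a membrane protein related to Notch ligands, had 0 or 1 read in YY1 KO hearts and 1 or 2 in controls. Dio3, which inactivates thyroid hormone, had 9, 0, 12 and 2 reads in YY1 KO hearts, against 0, 1, 8 and 0 in controls. Neither was tested.

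Genes near Yy1 were called in both directions. Of 16 genes other than Yy1 tested with a start within 1 Mb of that of Yy1, 4 were higher (25%, against 21.6% of all genes), 5 lower (31.2%, against 17.3%) and 7 not called, among them Begain, Meg3 and Rian. The 4 with the smallest p were Wdr25 (log2 fold change 0.82 ± 0.12), Eml1 (−0.59 ± 0.09), Bcl11b (−2.77 ± 0.45) and Degs2 (−1.22 ± 0.23), with edgeR adjusted p of at most 0.00387. At Degs2, counted among the 5 lower genes, 94.5% of strand-resolved reads in YY1 KO hearts and 97.1% in controls lay on the opposite strand. The difference therefore cannot be assigned to the Degs2 transcript, for which the fit of strand-resolved counts gave no value.

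**Figure D4:**
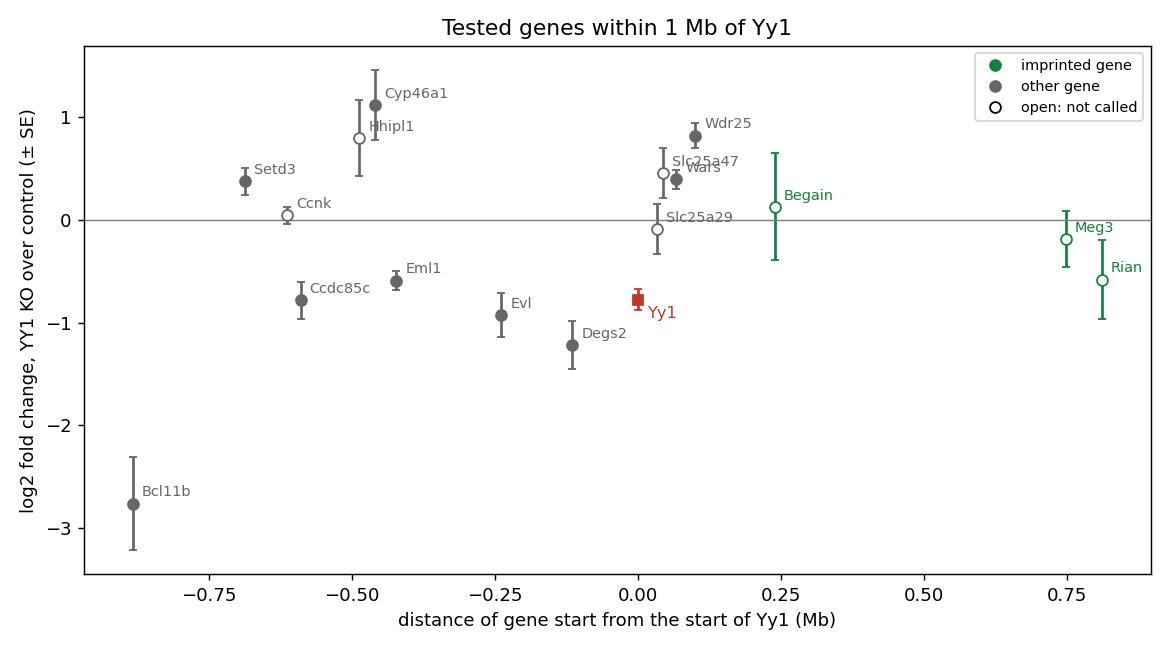
Log2 fold change (± SE) of tested genes against the distance of their start from that of Yy1 in Mb, with imprinted genes in green, Yy1 in red and open symbols for genes not called. Begain (0.13), Meg3 (−0.19) and Rian (−0.58) lie downstream and are open, while 9 of the other genes are filled.

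Igf2 and H19 share a cluster on chromosome 7. Igf2, the paternally expressed fetal growth factor, was at 24.6, 22.5, 32.6 and 24.0 CPM in YY1 KO hearts, against 31.9, 36.3, 27.2 and 34.4 CPM in controls. YY1 KO 3 and control 3 overlapped, and Igf2 was not called (−0.32 ± 0.14, edgeR adjusted p = 0.0948) unless YY1 KO 3 was left out (−0.45, edgeR adjusted p = 0.0264). H19, a maternally expressed noncoding RNA, was at 39.5, 33.2, 44.1 and 18.6 CPM in YY1 KO hearts, against 34.0, 34.0, 25.3 and 25.0 CPM in controls (0.20 ± 0.24, edgeR adjusted p = 0.548). The highest and the lowest value of H19 were both from YY1 KO hearts.

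Igf2r, the receptor that clears IGF2, stood at 285 to 390 CPM in YY1 KO hearts and 307 to 368 CPM in controls (−0.04 ± 0.13, edgeR adjusted p = 0.845). Airn, the paternal antisense RNA that silences Igf2r in cis, was at 6.59 to 10.2 CPM in YY1 KO hearts and 6.41 to 7.90 CPM in controls (0.12 ± 0.17, edgeR adjusted p = 0.600). The ratio of Airn to Igf2r CPM was 0.0205 to 0.0277 in YY1 KO hearts and 0.0186 to 0.0239 in controls, overlapping between groups. Among 14 tested partners of the IGF axis, 1 was higher (Igfbp6, an IGF-binding protein, 0.94 ± 0.22) and 2 lower (the insulin receptor gene Insr, −0.32 ± 0.09, and the adaptor gene Grb14, −0.82 ± 0.25), with edgeR adjusted p of at most 0.0280. The groups of Grb14 overlapped, and its call was lost without control 1 or 2 or YY1 KO 1, 2 or 3 (edgeR adjusted p 0.0542 to 0.0795). The call of Insr was lost without control 2 or YY1 KO 1 or 3 (edgeR adjusted p 0.0598 to 0.0734). These shares (7.14% and 14.3%) were below those of all genes, and the list's median log2 fold change was 0.12.

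The Peg3 cluster was examined because of the known YY1 sites in its control region. Peg3, a paternally expressed zinc finger gene, was at 5.40, 7.61, 6.30 and 4.86 CPM in YY1 KO hearts, against 4.30, 4.63, 3.79 and 5.00 CPM in controls. YY1 KO 4 lay just below control 4, and Peg3 was not called (0.45 ± 0.18, edgeR adjusted p = 0.0808). It was called without YY1 KO 4 (0.54, edgeR adjusted p = 0.0497) and with library size scaling (0.50, edgeR adjusted p = 0.0427). Its neighbour Zim1, a maternally expressed zinc finger gene, was at 0.249 to 1.25 CPM in YY1 KO hearts and 0.379 to 1.28 CPM in controls (−0.55 ± 0.58, edgeR adjusted p = 0.474). Usp29, a deubiquitinase gene that shares the promoter region of Peg3, had 1 read, in YY1 KO 4. Gnas, the other locus with known YY1 sites, was the most abundant of the 38 genes per length (98.9 CPM per kb of exon). It was at 1061 to 1245 CPM in YY1 KO hearts and 1037 to 1125 CPM in controls (0.05 ± 0.10, edgeR adjusted p = 0.708), and its maternal, paternal and biallelic products are counted together.

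In the Snrpn-Ube3a cluster, Ndn, a paternally expressed MAGE family gene, was at 8.78, 4.14, 5.46 and 7.86 CPM in YY1 KO hearts, against 8.80, 9.33, 10.99 and 11.4 CPM in controls. The groups did not overlap, but YY1 KO 1 and control 1 nearly met and the gene was not called (−0.63 ± 0.23, edgeR adjusted p = 0.0583). It was called with DESeq2 (adjusted p = 0.0237), with RLE scaling, with the term for sex, in the Y-positive hearts and without YY1 KO 1. Ube3a, a ubiquitin ligase gene imprinted in neurons, was at 35.4 to 37.8 CPM in YY1 KO hearts and 36.9 to 40.6 CPM in controls (−0.07 ± 0.07, edgeR adjusted p = 0.485). Magel2, another MAGE gene, had 0 reads in all hearts. Snrpn, which encodes a spliceosome protein, is also listed at 0, as is Snurf. In GENCODE the genes share 216 bases of the 2.159 kb of Snrpn exon. The annotation counted is not given, so this 0 cannot be read as absence of the transcript, and its cause was not tested.

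Snhg14, the paternally expressed host RNA that runs against Ube3a and shares 1803 exon bases with it, was looked up after the values were seen. It was at 5.76, 9.98, 9.42 and 7.67 CPM in YY1 KO hearts, against 6.06, 4.41, 3.54 and 4.36 CPM in controls (0.84 ± 0.23, edgeR adjusted p = 0.0175). Control 1 lay within the range of the YY1 KO hearts. The call was lost, among other settings, without YY1 KO 3 (edgeR adjusted p = 0.0543) and in the Xist-positive hearts (0.37, edgeR adjusted p = 0.503).

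Of the remaining paternally expressed genes, Plagl1, a zinc finger factor that acts on a network of imprinted growth genes, came nearest to a call. It was at 5.99, 7.06, 5.72 and 3.62 CPM in YY1 KO hearts, against 2.82, 3.42, 3.16 and 4.55 CPM in controls. YY1 KO 4 was within the control range (0.68 ± 0.24, edgeR adjusted p = 0.0512), and without it, or without control 4, the gene was called (0.84 and 0.83). On all 8 hearts it was also called with library size scaling (edgeR adjusted p = 0.0383), with strand-resolved counts (edgeR adjusted p = 0.0364) and with DESeq2 (adjusted p = 0.0419). Nap1l5, a relative of nucleosome assembly proteins in an intron of Herc3, was at 0.998 to 1.56 CPM in YY1 KO hearts and 0.569 to 1.13 CPM in controls (0.72 ± 0.31, edgeR adjusted p = 0.0901), and was called without control 1 (0.98, edgeR adjusted p = 0.0336). Impact, which restrains the stress kinase GCN2, was at 35.6 to 37.0 CPM in YY1 KO hearts and 24.7 to 38.8 CPM in controls (0.20 ± 0.14, edgeR adjusted p = 0.273).

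Of the Peg10 cluster, Peg10, Sgce and Asb4 were not called. Peg10, derived from a retrotransposon, was at 1.12 to 4.28 CPM in YY1 KO hearts and 0.997 to 2.21 CPM in controls (0.53 ± 0.45, edgeR adjusted p = 0.377). Sgce, which encodes epsilon-sarcoglycan, was at 18.3 to 24.6 CPM in YY1 KO hearts and 18.2 to 24.1 CPM in controls (0.10 ± 0.13, edgeR adjusted p = 0.572). Asb4, a maternally expressed SOCS box gene, was at 4.61 to 7.08 CPM in YY1 KO hearts and 3.70 to 7.54 CPM in controls (0.18 ± 0.25, edgeR adjusted p = 0.595). Peg13, a paternal noncoding RNA in an intron of Trappc9, was at 56.0 to 73.4 CPM in YY1 KO hearts and 51.4 to 84.6 CPM in controls (−0.03 ± 0.15, edgeR adjusted p = 0.897). Trappc9, which encodes a vesicle tethering subunit, was at 51.4 to 66.3 CPM in YY1 KO hearts and 42.5 to 57.05 CPM in controls (0.26 ± 0.12, edgeR adjusted p = 0.126), and was called with library size scaling (0.32, edgeR adjusted p = 0.0371). Rasgrf1, a Ras exchange factor gene, had 0 or 1 read in YY1 KO hearts and 0 to 2 in controls.

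Per kb of annotated exon, the order of mean levels differed between groups below the first places. In YY1 KO hearts Gnas (100.7 CPM per kb) was followed by Igf2r (35.8), Grb10 (17.3), Blcap (16.5), Copg2 (13.93), Peg13 (13.88), H19 (13.8) and Zrsr1 (13.4). In controls Gnas (97.1 CPM per kb) was followed by Igf2r (36.7), Blcap (20.8), Grb10 (14.4), Peg13 (14.2), H19 (12.01), Copg2 (9.59) and Commd1 (7.83), with Zrsr1 at 6.66. Kcnq1ot1 was the lowest of the tested genes in both groups (0.0576 CPM per kb in YY1 KO hearts and 0.0322 in controls), over a single annotated exon of 93.1 kb. The lengths come from GENCODE and not from the annotation that was counted.

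Promoters were searched for the cores of YY1 and ZFP57, a zinc finger protein that binds methylated DNA at control regions. Windows from 250 bases before to 50 after a start were held for 31 of the 38 genes in RefSeq (GRCm38.p6). The YY1 core GCCATNTT, on either strand, was found for 1 of the 31 genes (3.23%), Ube3a, and for 6.96% of all 27025 genes with a window. The search was not aimed at control regions, such as those of Peg3 and Gnas with known YY1 sites. A gene without a match can therefore still have such sites there. The ZFP57 core TGCCGC, on either strand, was found for 11 of the 31 (35.5%) and for 13.1% of all genes. Some genes have several windows. By window the shares were 23.5% of 51 windows of imprinted genes and 11.6% of all. The 11 genes were Commd1, Copg2, Grb10, Igf2, Meg3, Mest, Nap1l5, Nnat, Plagl1, Snrpn and Zim1. Of the called genes Zrsr1, Kcnq1ot1 and Ddc held neither core in their windows. A match is a description of the letters and shows no binding, and methylation was not measured.

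The windows of the called genes with a ZFP57 core, on the strand of the gene, are shown with its letters in capitals for the pair Mest (chr6:30737800-30738099, plus strand) and Copg2 (chr6:30896745-30897044, minus strand), for Commd1 (chr11:22982235-22982534, minus strand) and for Nnat (chr2:157559828-157560127, plus strand). The last window, of Ube3a (chr7:59228500-59228799, plus strand), is shown for the YY1 core in capitals.
Mest: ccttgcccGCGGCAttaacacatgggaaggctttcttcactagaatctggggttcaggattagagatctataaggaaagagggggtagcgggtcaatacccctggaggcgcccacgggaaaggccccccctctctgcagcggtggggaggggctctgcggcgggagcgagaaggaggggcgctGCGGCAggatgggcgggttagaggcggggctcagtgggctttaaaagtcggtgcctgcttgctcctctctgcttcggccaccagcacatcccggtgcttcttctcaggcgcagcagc
Copg2: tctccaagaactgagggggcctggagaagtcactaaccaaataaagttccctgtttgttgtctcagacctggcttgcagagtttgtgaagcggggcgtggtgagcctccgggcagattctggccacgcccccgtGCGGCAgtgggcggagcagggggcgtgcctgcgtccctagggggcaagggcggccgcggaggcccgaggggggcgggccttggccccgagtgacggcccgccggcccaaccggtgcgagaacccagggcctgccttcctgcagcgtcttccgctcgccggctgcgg
Commd1: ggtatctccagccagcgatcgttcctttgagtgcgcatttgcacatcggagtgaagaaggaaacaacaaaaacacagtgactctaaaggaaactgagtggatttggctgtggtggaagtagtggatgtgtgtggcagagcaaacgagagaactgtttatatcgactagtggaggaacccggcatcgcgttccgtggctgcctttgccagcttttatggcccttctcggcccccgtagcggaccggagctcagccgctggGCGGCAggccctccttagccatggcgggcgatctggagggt
Nnat: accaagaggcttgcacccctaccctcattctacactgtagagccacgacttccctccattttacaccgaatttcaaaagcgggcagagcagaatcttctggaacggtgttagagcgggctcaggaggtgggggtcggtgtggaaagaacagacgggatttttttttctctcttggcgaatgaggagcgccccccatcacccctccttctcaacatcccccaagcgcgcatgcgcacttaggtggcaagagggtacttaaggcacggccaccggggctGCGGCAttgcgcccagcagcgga
Ube3a: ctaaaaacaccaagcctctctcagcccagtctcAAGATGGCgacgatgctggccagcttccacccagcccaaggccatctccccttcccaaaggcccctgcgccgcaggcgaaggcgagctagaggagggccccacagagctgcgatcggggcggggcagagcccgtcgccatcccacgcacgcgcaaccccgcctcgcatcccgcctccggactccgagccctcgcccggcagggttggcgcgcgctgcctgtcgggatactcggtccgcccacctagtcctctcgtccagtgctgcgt

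In the windows shown, Mest carried 2 matches and each of the other genes 1. Their levels differed in direction, with Copg2 higher and Mest and Commd1 lower in YY1 KO hearts. Ube3a, with the YY1 core, was at nearly equal levels in both groups.

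Other imprinted genes, listed for comparison, were called in both directions. Of 34 tested from a list of 50, 6 were higher (17.6%, against 21.6% of all genes) and 9 lower (26.5%, against 17.3%), with a median log2 fold change of −0.10. Together 44.1% were called, against 38.9% of all genes and 23.3% of the 30 imprinted genes above. The 4 with the smallest p were Kcnq1, given above, Pon2, a lactonase gene of the Peg10 cluster (1.19 ± 0.13), Casd1, a sialic acid acetyltransferase gene of the same cluster (−0.96 ± 0.13), and Htr2a, a serotonin receptor gene (−1.43 ± 0.22), with edgeR adjusted p of at most 0.00133. Pon2 was at 128 ± 19.7 CPM in YY1 KO hearts and 56.1 ± 6.07 CPM in controls, and Casd1 at 19.1 ± 3.05 CPM in YY1 KO hearts and 37.3 ± 4.48 CPM in controls (SD, n = 4 each). Their neighbours Peg10, Sgce and Asb4 were not called.

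Among 23 tested factors that keep or read imprints, 3 were higher and 3 lower and 17 not called, with a median log2 fold change of −0.12. These shares (13.04% each) were below those of all genes tested (21.6% higher and 17.3% lower). Dnmt3a, which lays down new DNA methylation, was at 36.8 ± 2.51 CPM in YY1 KO hearts and 84.2 ± 4.24 CPM in controls (−1.19 ± 0.08, edgeR adjusted p = 0.000109). The chromatin remodeller gene Atrx (−0.61 ± 0.08) and Zfp445 (−0.52 ± 0.15), a zinc finger gene that keeps imprints alongside Zfp57, were lower, and the heterochromatin protein gene Cbx3 (0.47 ± 0.09) was higher, with edgeR adjusted p of at most 0.0221. The call of Zfp445 was lost without control 2 (edgeR adjusted p = 0.0592) and in the Y-positive hearts (−0.36, edgeR adjusted p = 0.213). Zfp57 was at 2.54 ± 0.635 CPM in YY1 KO hearts and 4.4 ± 1.92 CPM in controls and was not called (−0.79 ± 0.34, edgeR adjusted p = 0.0942).

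Whole heart was sequenced, so fewer cells of a type and less RNA per cell cannot be told apart. The shares called over all genes tested were 21.6% higher and 17.3% lower. Lists of 4 to 7 markers are short, so a single call moves their share widely. Of 6 endothelial markers 5 were lower and 0 higher, and their summed level was 759 to 936 CPM in YY1 KO hearts and 1159 to 1579 CPM in controls. Of 6 markers of mural cells 2 were lower, with sums of 522 to 746 CPM in YY1 KO hearts and 696 to 892 CPM in controls. Of 7 fibroblast markers 1, Pdgfra, was higher, with sums of 1283 to 2809 CPM in YY1 KO hearts and 913 to 2302 CPM in controls. Of 6 cardiomyocyte markers 2 were lower and 0 higher, with sums of 44367 to 64674 CPM in YY1 KO hearts and 67440 to 89703 CPM in controls. Of 4 tested markers of nerve and glia 1, Dbh, was lower and 1, Tubb3, higher with overlapping groups (2.21 ± 0.54, edgeR adjusted p = 0.0112), with sums of 9.17 to 35.4 CPM in YY1 KO hearts and 11.95 to 17.5 CPM in controls. Of 6 macrophage markers and 6 of dividing cells edgeR called 0, with 0 at an unadjusted p under 0.05. The sums for dividing cells were 4.14 to 71.6 CPM in YY1 KO hearts and 10.7 to 222 CPM in controls. No marker of these 7 lists was at 0 in all hearts. The part of cell makeup in the changes of imprinted genes was not tested.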

How the data were processed

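For each mouse the authors deposited a table of whole-number counts by gene symbol, irrespective of strand and by strand. The submitters' processing notes name Trimmomatic, STAR and mm10. Versions, settings and the annotation counted: not given in the sources used here. Libraries were made from polyadenylated RNA of frozen hearts, per the labels' protocols. Of all reads, 33.0 to 38.9% lay in no single gene and were left out.

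The members, lists and alternatives were chosen with earlier results of these data known. All genes were fitted with edgeR 4.0.16 in R 4.3.3 on the deposited counts irrespective of strand (filterByExpr with minimum count 10 in at least 4 libraries, TMM, robust quasi-likelihood F test, group as the only term, Benjamini-Hochberg over 13506 genes, threshold 0.05). A log2 fold change is positive where YY1 KO is higher, and the SE was taken from the fold change and F. Named genes were the 38 members, Yy1 and, per list, up to 4 called genes with the smallest p. The strand-resolved counts came from the strand column that held most gene reads (2.66 to 5.31% lay on the other strand). Positions and exon lengths came from GENCODE M21 (GRCm38, the build of mm10), which matched 23379 symbols and all 38 members. The labels number separate mice. No 2 libraries agreed within sampling noise. Same-numbered hearts did not deviate together in every pair (correlations −0.46 to 0.34), so numbers were not taken as pairs. The fit was tested on simulated data.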

Additional observations from a re-analysis of the deposited data

Results flagged for a closer look

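In a screen for a heart far from the 3 others of its group, over 60 groups of 4 hearts (30 genes in both genotypes), 1 was found, where chance flags about 1 group in 20. For Sgce, control 3 stood at 24.1 CPM and the other controls between 18.2 and 18.8 CPM.

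Reads opposite to the annotated strand are not part of the comparisons of sense transcripts. At Zrsr1 they numbered 52, 71, 102 and 72 in YY1 KO hearts (mean 74.25), against 37, 36, 34 and 15 in controls (mean 30.5), so all YY1 KO hearts lay above all controls. They made up 7.82% of strand-resolved reads at Zrsr1 in YY1 KO hearts and 6.91% in controls.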

How the results depend on the processing

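Over 17 alternatives, the 7 called imprinted genes kept their direction in each one that gave a value (Nnat gave none with strand-resolved counts). The count of higher genes was 6 with library size scaling, 3 to 5 when 1 heart was left out, 2 in the Y-positive hearts and 0 in the Xist-positive hearts. The count of lower genes was 3 to 4 when 1 heart was left out and 0 in the Xist-positive hearts. The 5 higher genes were found without YY1 KO 4. With DESeq2 4 were higher and 5 lower. The share of all genes called was not counted for any alternative, so these counts cannot be read against it. In the Xist-positive hearts 0 of the 20 other called genes given above, Yy1 among them, were called. The fit with the replicate number as a block (replicate block) gave 3 higher and 4 lower genes, and no YY1 KO heart except number 4 correlated best with its own number. In that fit Snhg14, Grb14, Insr and Zfp445 were not called (edgeR adjusted p 0.0647, 0.0783, 0.0641 and 0.0687).

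Signs turned only for genes that were not called. In the Y-positive hearts the log2 fold change was −0.17 for Begain, 0.23 for Cdkn1c, −0.023 for Grb10, −0.031 for Sgce, 0.14 for Peg13 and −0.22 for Airn. In the Xist-positive hearts, a choice made after seeing the data, it was 0.10 for Meg3, −0.021 for H19, −0.23 for Asb4, −0.060 for Gnas and 0.089 for Igf2r. With library size scaling it was 0.034 for Peg13 and 0.032 for Igf2r. With 1 heart left out it ran from −0.15 to 0.44 for Begain, −0.33 to 0.016 for Cdkn1c, −0.14 to 0.10 for Peg13, −0.12 to 0.035 for Igf2r and −0.032 to 0.19 for Airn. The causes were not tested. Fits of 2 against 2 hearts have little power, and the 8 imprinted genes under the filter on low counts were not compared.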
